A study of Mus musculus with 4 samples.

Results

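TFE3 occupancy at 3 gene promoters of DNA damage signalling, damage tolerance and cell death was described from chromatin immunoprecipitation followed by sequencing (ChIP-seq) in mouse embryonic fibroblasts. The genes are Rad9a, Ube2b and Bax. Members were the deposited TFE3 peaks that overlap 1 window of 10 kb per gene, in the mouse build mm9: chr19:4197000-4207000 for Rad9a, chr11:51809000-51819000 for Ube2b and chr7:52717000-52727000 for Bax. The windows were chosen by the score and fold of their peaks in these lists, so ranks, scores and fold enrichments of the members are given as a description, with no test. They held 9 of the 4910 peaks in 3 lists, 1 peak per gene and list, which fell into 3 of the 3415 regions made by merging overlapping peaks. Gene names of the windows are those of the rule. No mm9 annotation was used here to check them.

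Cells of the label strain CRL-2977 gave 4 libraries, 1 per group. The TFE3 antibody was used on cells in full medium with 10% serum (control), on cells starved for 2 hours in Earle's balanced salt solution and on cells given tunicamycin at 0.1 µg/ml for 16 hours. The fourth library, made with rabbit IgG, was the background of the 3 peak lists, and every library came from cells fixed in 1% formaldehyde. The series concerns the part of the MITF/TFE3 family in the integrated stress response. With 1 library per condition and no replicate, every difference below is between libraries. Peak lists hold no expression values, so the cell type was not checked against markers.

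TFE3 is a transcription factor of the MITF/TFE family, which binds E-boxes of the form CACGTG as dimers. In fed cells the kinase mTORC1 keeps much of it in the cytoplasm, and it moves to the nucleus when nutrients are short or the endoplasmic reticulum is stressed. Tunicamycin causes the latter by blocking the N-linked glycosylation of proteins. Rad9a encodes a subunit of the ring-shaped clamp RAD9-HUS1-RAD1, which is loaded at damaged DNA and helps to activate the checkpoint kinase ATR. Ube2b encodes a RAD6 ubiquitin-conjugating enzyme, which acts with RAD18 on the replication clamp PCNA at stalled forks. Bax encodes a pore-forming member of the BCL-2 family that opens the outer mitochondrial membrane in apoptosis.

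The promoter sequences of Bax and Ube2b, the members with an available sequence, are shown with their copies of the E-box CACGTG marked. They come from RefSeq in build GRCm38.p6, in windows of 300 bases that run from 250 bases before a gene's start to 50 after it. These positions were not converted to mm9, so no distance between a site and a peak summit is given. Of the 3 members, 2 had an entry, and Rad9a had none, so whether its promoter holds an E-box was not read. The 250 bases before the start are printed 5′ to 3′ on the minus strand, from chr7:45466899-45467148 for Bax and chr11:52000787-52001036 for Ube2b, with each CACGTG in capitals.
Bax: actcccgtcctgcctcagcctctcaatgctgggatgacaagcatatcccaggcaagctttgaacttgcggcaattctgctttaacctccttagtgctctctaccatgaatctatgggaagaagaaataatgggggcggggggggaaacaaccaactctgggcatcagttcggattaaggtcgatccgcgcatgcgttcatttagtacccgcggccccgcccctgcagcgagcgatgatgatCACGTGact
Ube2b: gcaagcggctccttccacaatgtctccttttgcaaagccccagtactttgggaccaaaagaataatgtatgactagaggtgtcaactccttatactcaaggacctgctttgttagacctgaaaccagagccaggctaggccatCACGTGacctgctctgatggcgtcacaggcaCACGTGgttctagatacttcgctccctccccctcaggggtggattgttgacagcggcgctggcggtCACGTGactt
Bax, last 25 bases of the window, after the start: gcggggcaccCACGTGagggccgca

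The Bax window held 2 copies of CACGTG. Counted to the first C, 1 lay 9 bases before the start and the other at base 36 after it, 44 bases apart. The upstream Bax copy read atCACGTGac and thus also matched the longer palindrome TCACGTGA, while the downstream one read ccCACGTGag and did not. Ube2b had 3 copies in the window of its upstream start. They lay 107, 76 and 10 bases before it, with the first C of the outer copies 97 bases apart. In order they read atCACGTGac, caCACGTGgt and gtCACGTGac, so the outer copies matched TCACGTGA and the middle one did not. A second Ube2b window, of a start further into the gene, held none.

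CACGTG is its own reverse complement, as is TCACGTGA, so each match counts for both strands, and every TCACGTGA contains a CACGTG. Of 32851 RefSeq promoter windows of the same length, 7.15% held at least 1 CACGTG, 0.594% at least 2 and 0.0883% at least 3. TCACGTGA stood in 0.974% of windows, and 2 or more copies in 0.0578%. The looser CANNTG, which includes CACGTG, was in 72.3% of windows, and the Bax and Ube2b windows had 2 and 3 matches to it, at the CACGTG positions only. TCACATGA, another E-box that MITF binds, was searched on both strands and found in neither gene's windows (0.986% of all windows held it). A match of letters is a description and does not show binding.

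The rest of each pathway was read in the same table. In the BCL-2 family, 10 of 11 listed genes had a window, and CACGTG was found in 2 of them, Bax and Bbc3. Bbc3 encodes the death inducer PUMA and had at most 1 copy in any of its 3 windows. It was picked out for naming after the counts were seen. Bax was the 1 gene of the family with TCACGTGA. Of the clamp and ATR genes, 8 of 10 had a window (all but Rad9a and Rhno1), and 0 held CACGTG, with Hus1, Rad1, Rad17, Atr, Topbp1 and Chek1 among those without it. In the RAD6 pathway, 9 of 10 had a window and Ube2b was the 1 gene with CACGTG. Its near-identical relative Ube2a and the partner Rad18 had none. Over all 27 genes with a window, 3 held CACGTG (Bax, Ube2b and Bbc3) and 2 held TCACGTGA (Bax and Ube2b). Among all 27025 genes in the table the shares were 8.09% and 1.12%. Bax and Ube2b were chosen by their TFE3 peaks, so nothing about the pathways is read from these counts. TFE3 peaks at the other genes were not looked for, since their positions in mm9 were not used here.

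All 3 genes had a peak in each TFE3 list, and the peaks of each gene overlapped across the lists. Over the 3415 merged regions, 4.95% were called in all 3 lists. By list, 12.3% of the regions were called in control, 50.1% in starvation and 81.3% in tunicamycin, from 422, 1712 and 2776 peaks. The genes were chosen by these calls and ranks, so nothing is read from the counts. The authors' score is 10 times the −log10 q of a peak, cut to a whole number, and rank 1 is the highest score. Each gene's peak stood among the top 10 by score in each list.

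**Figure D1:**
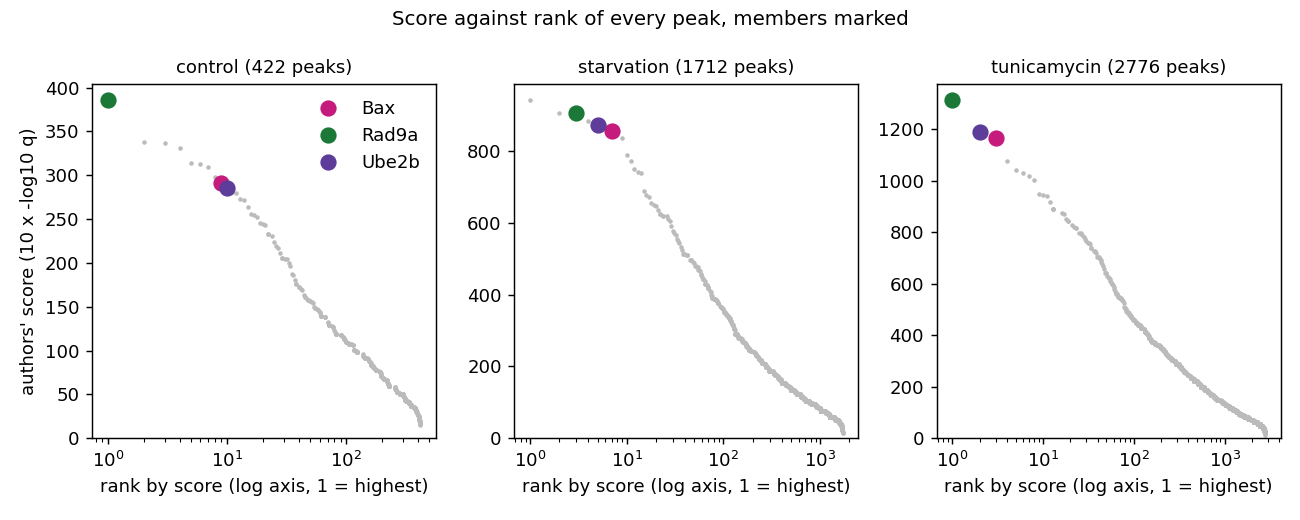
Authors' score (10 times −log10 q) against rank by score on a log axis for every peak of the control, starvation and tunicamycin lists, each point 1 peak, with Bax, Rad9a and Ube2b in colour. The 3 genes hold ranks 1, 9 and 10 in control, 3, 5 and 7 in starvation and 1, 2 and 3 in tunicamycin.

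Rad9a, the checkpoint clamp gene, had the highest score of the control and tunicamycin lists. Its control peak, chr19:4201552-4201923, scored 386 (rank 1 of 422), with the next peak at 338. In starvation the peak at chr19:4201421-4202064 scored 905 (rank 3 of 1712), just under the 906 of the peak above it. The tunicamycin peak, chr19:4201414-4202047, scored 1311 (rank 1 of 2776), and the next, Ube2b, had 1189. The fold enrichment at the summit, which the authors' caller took over the local background of its own list, was 12.2 in control, 17.8 in starvation and 22.2 in tunicamycin.

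By fold, Rad9a stood lower, at rank 14 in control, 24 in starvation and 16 in tunicamycin. The local IgG background recovered at its summit was 4.0, 5.0 and 5.3 tags per fragment length in control, starvation and tunicamycin. The commonest value recovered among the peaks of each list, taken here as the genome-wide level, was 1.79, 2.32 and 2.55. The Rad9a background was thus 2.23, 2.16 and 2.08 times the genome-wide level in the same order. Bax, by contrast, was at 1.08, 1.08 and 1.18 times, and Ube2b at 1.32, 1.31 and 1.31 times. The 3 lists share 1 IgG library, so the ratios of a gene are not independent of each other. No counting interval was made for the background, which is a few tags. The part of the local background in the order of the genes by score or by fold was not tested.

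Ube2b, the RAD6 enzyme gene, had ranks by score and by fold that lay close together. Its control peak at chr11:51814176-51814601 scored 286 (rank 10), the starvation peak at chr11:51814125-51814640 scored 872 (rank 5) and the tunicamycin peak at chr11:51814103-51814647 scored 1189 (rank 2). The fold was 12.5, 22.1 and 26.1 in the same order, with ranks by fold of 11, 7 and 2.

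Bax, the apoptosis gene, had the highest fold of the 3 in each list and the highest of all 2776 tunicamycin peaks. The control peak at chr7:52722073-52722385 had a fold of 13.4 and a score of 291 (rank 9). In starvation, chr7:52721915-52722447 had a fold of 23.9 and a score of 854 (rank 7). In tunicamycin, chr7:52721905-52722522 had 27.2 and 1165 (rank 3). Ranks by fold were 5, 3 and 1. The order by fold was thus Bax, Ube2b, Rad9a in control, starvation and tunicamycin alike, while by score Rad9a led each time and Bax and Ube2b differed by 5 points in control.

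**Figure D2:**
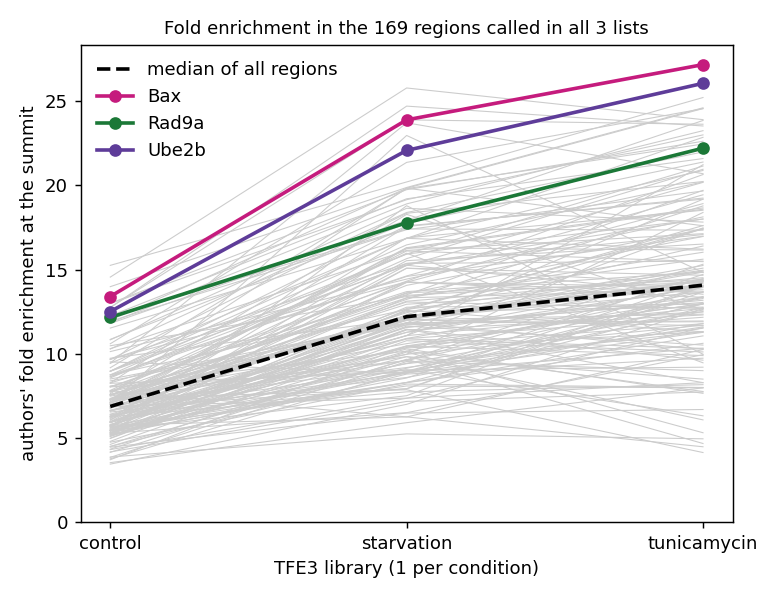
Authors' fold enrichment at the summit (linear axis) in the control, starvation and tunicamycin libraries for the 169 regions called in all 3 lists, each grey line 1 region, the dashed line their median and the coloured lines Bax, Rad9a and Ube2b. All 3 genes lie above the medians of 6.87, 12.2 and 14.1 in each library, which follows from their choice by score and fold.

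Among the 169 regions of all 3 lists, the fold medians were 6.87 in control, 12.2 in starvation and 14.1 in tunicamycin. Counted from the highest fold, Bax was at place 4, 3 and 1, Ube2b at 9, 7 and 2 and Rad9a at 12, 24 and 16. The tunicamycin fold was 2.03 times the control fold at Bax, 2.08 times at Ube2b and 1.83 times at Rad9a, beside a median ratio of 2.05 (quartiles 1.76 and 2.34) over the 169 regions. For starvation over control these ratios were 1.78, 1.76 and 1.46 beside a median of 1.77 (1.52 to 2.02). The windows were chosen by score and fold, so the high folds of the members follow from that choice and are no result. Their ratios between libraries lay near the middle of the 169 regions for Bax and Ube2b. For Rad9a the ratio lay below the lower quartile in starvation. Each fold is against the background of its own list, and the 3 lists share 1 IgG library.

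The number of TFE3 tags over each summit was worked back from 2 deposited values, the fold and the −log10 p. Rad9a rested on 92 tags in control (95% exact Poisson interval 74.2 to 113), 171 after starvation (146 to 199) and 298 after tunicamycin (265 to 334). Ube2b had 63 (48.4 to 80.6), 143 (121 to 168) and 241 (212 to 273) in the same order. Bax had 59 (44.9 to 76.1), 134 (112 to 159) and 231 (202 to 263). In each library Rad9a had the most tags. Its interval overlapped that of Ube2b in all 3 libraries and that of Bax in control and starvation. Only in tunicamycin did the intervals of Rad9a and Bax not overlap. Those of Bax and Ube2b overlapped in each library. These intervals cover counting error only. Overlap of separate intervals is no test of a difference between genes, and the genes were chosen by score and fold. The median peak rested on 30 tags in control, 37 in starvation and 53 in tunicamycin.

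Depth relative to the IgG library was 1.54 in control, 1.62 with starvation and 2.14 with tunicamycin, so tags were also put at the IgG depth. At that depth Rad9a had 59.8, 106 and 139 tags, Ube2b 41.0, 88.4 and 112, and Bax 38.4, 82.8 and 108. Tunicamycin over control came to 2.32 at Rad9a (counting interval 1.83 to 2.97), 2.74 at Ube2b (2.07 to 3.68) and 2.81 at Bax (2.1 to 3.8), with a median of 2.71 over the 169 regions. For starvation over control the ratio was 1.77 (1.36 to 2.30), 2.16 (1.59 to 2.95) and 2.16 (1.58 to 2.99) in the same order of genes, with a median of 2.13. Tunicamycin over starvation gave 1.31 (1.09 to 1.60), 1.27 (1.03 to 1.57) and 1.30 (1.05 to 1.62), with a median of 1.24. The intervals cover counting error only, not the spread between replicates. The tags were worked back from the fold, by which the windows were also chosen. An interval that leaves out a ratio of 1 is thus no test between conditions.

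All 3 genes thus had their lowest depth-scaled level in control and their highest in tunicamycin. At Bax and Ube2b the ratios to control lay between the quartiles of the 169 regions, which were 1.90 and 2.43 for starvation and 2.32 and 2.99 for tunicamycin. Rad9a lay below the lower quartile for starvation and at it for tunicamycin. The fragments were not of equal length: the shortest peak, which follows the caller's fragment length, measured 149 bp in control against 193 bp (starvation) and 212 bp (tunicamycin). Longer fragments put more tags over a summit. The share of these ratios that moves with fragment length was not tested.

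**Figure D3:**
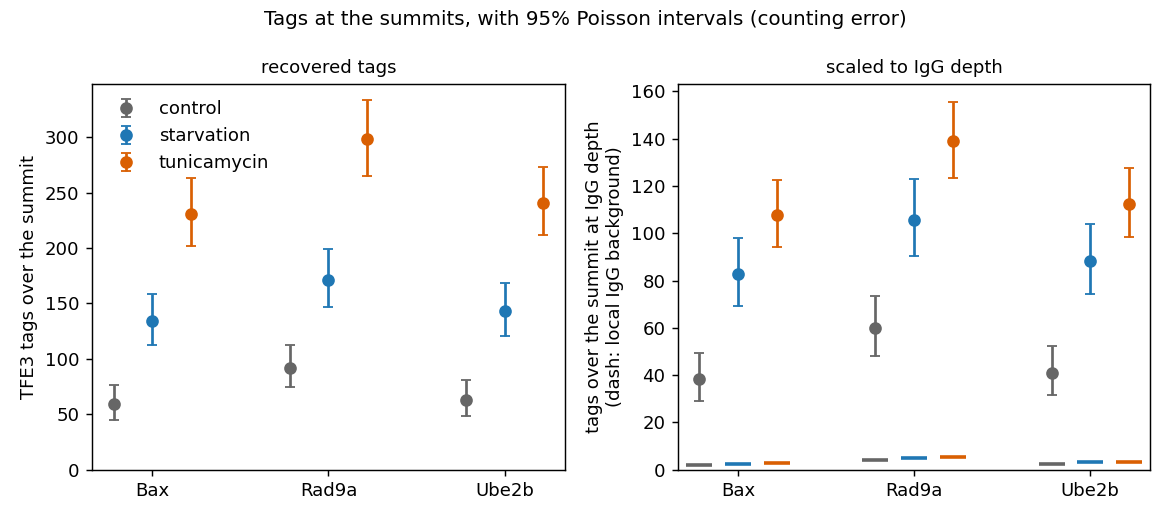
TFE3 tags over the summit at Bax, Rad9a and Ube2b in control, starvation and tunicamycin, as recovered (left) and scaled to the IgG depth (right), with points as values, bars as 95% exact Poisson intervals and dashes as the local IgG background. In the right panel each gene has its lowest value in control (38.4 to 59.8) and its highest in tunicamycin (108 to 139).

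Summit positions were not used by the rule. At Rad9a they fell at 4201735 in control, 4201743 in starvation and 4201745 in tunicamycin, within 10 bp of each other. Ube2b had 51814390, 51814343 and 51814371 in the same order, a span of 47 bp. Bax had 52722211 in control and 52722210 in tunicamycin, 1 bp apart, while the starvation summit lay at 52722267, 57 bp above the lower of them. The median span over the 169 regions was 22 bp (quartiles 12 and 41). Rad9a was thus tighter than most, and Bax and Ube2b were above the upper quartile. The Bax starvation summit lay 66.0% of the way along its peak, beside 44.1% in control and 49.4% in tunicamycin.

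Peaks of the stress lists contained those of control at each gene. The share of the 169 regions with such containment was not counted, so it is not read as a trait of these genes. Over those regions the median width ratio of starvation over control was 1.78. Rad9a was 372 bp wide in control, 644 bp after starvation and 634 bp after tunicamycin. Bax was 313 bp wide in control and 533 and 618 bp wide in the stress lists. Ube2b differed less, at 426, 516 and 545 bp. Its tunicamycin peak was 1.28 times as wide as its control peak, at place 167 of 169 from the largest ratio, against a median of 2.12. This ratio was below the median at Bax (1.97, place 107) and Rad9a (1.70, place 141) as well. The Ube2b control peak was the third widest of the 169, where the control median was 209 bp.

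**Figure D4:**
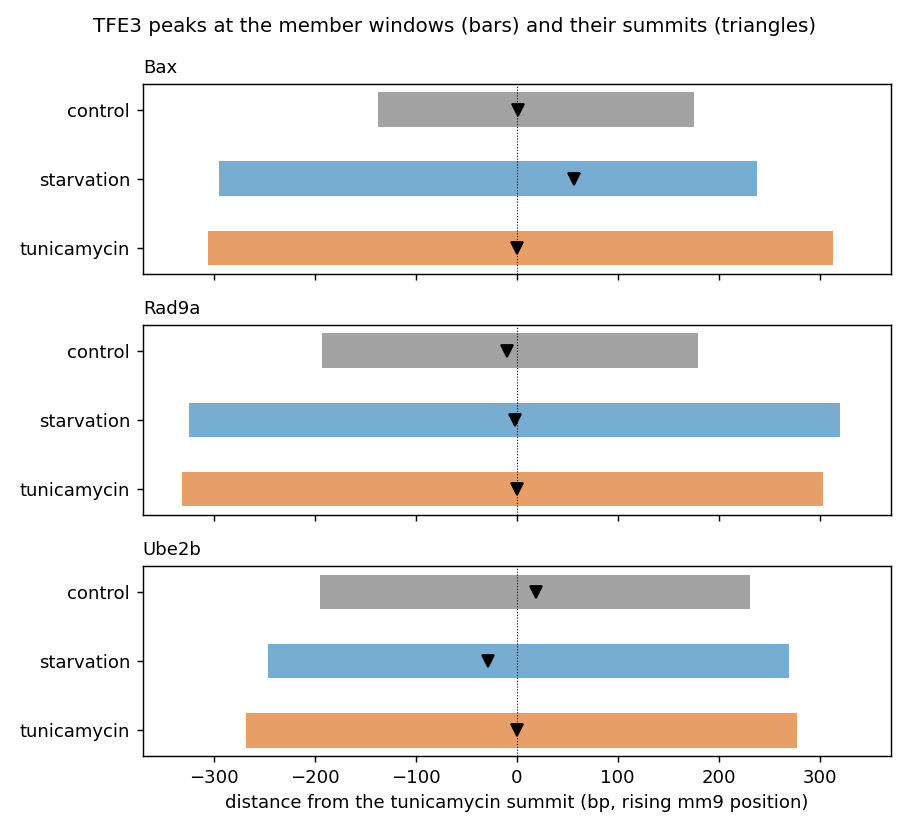
Peak extents (bars) and summits (triangles) at Bax, Rad9a and Ube2b in control, starvation and tunicamycin, on an axis of distance in bp from the tunicamycin summit of each gene. Rad9a summits lie within 10 bp, the Bax starvation summit is set off by 57 bp from the tunicamycin one, and the control bar of each gene lies inside both stress bars.

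The windows held no second peak in any list. Just outside the Bax window, by 1326 bp, the starvation list had a peak at chr7:52715202-52715674, with a fold of 7.0 and rank 712, which the control and tunicamycin lists lacked near there. It lay 6.24 kb from the Bax starvation peak. The nearest other peak to Rad9a was 74.8 kb away in control and 74.7 kb away in each stress list, at chr19:4126463-4126718 in the control list, where it had rank 50. Around Ube2b the nearest was 1569 kb away in control, against 1298 kb with starvation and 705 kb with tunicamycin.

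In RefSeq's GRCm38.p6 gene table, Bax lies between Ftl1, the ferritin light chain gene, and Dhdh. Rad9a lies between Ppp1ca, which encodes a catalytic subunit of protein phosphatase PP1 and whose span overlaps that of Rad9a, and the long non-coding RNA gene Gm30082. Ube2b lies between Cdkn2aipnl and Cdkl3, a kinase gene whose span overlaps that of Ube2b. A peak at an overlap or between close genes cannot be given to 1 gene from position alone.

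The regions most like each gene were found among the 169 by the distance of their log2 folds over the 3 libraries. Bax and Ube2b were nearest to each other (distance 0.16). Each had chr3:89006631-89007005 as its next, where the fold was 12.8 in control and 23.9 and 23.6 under the stresses, at a distance of 0.21 from Bax and 0.18 from Ube2b. Rad9a was nearest to chr10:41238831-41239085 (folds 11.8, 17.9 and 23.9, distance 0.11) and to chr17:53618338-53618598 (11.9, 18.9 and 23.3, distance 0.12). These likenesses rest on 3 libraries with a common background and are descriptions. They use the folds by which the windows were chosen, so the closeness of Bax and Ube2b is no result about the pair.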

How the data were processed

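ChIP-seq peak lists of 3 TFE3 libraries were used. The IgG library entered as their background. The submitters' processing notes name Bowtie, MACS2 and mm9 without version or role. Peaks were called per library, per the peak names, which give a TFE3 library and the negative control. For each peak the authors deposited the distance in bp from start to summit, the fold enrichment there (a linear ratio), the p-value and q-value as −log10, and a score. Filters are not given in the sources used here. Coordinates were made 1-based, so the summit is the start plus the deposited distance.

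Members were peaks overlapping the 3 windows. Regions were merged at an overlap of at least 1 bp. Among several peaks of a list in a region, the highest score was kept. The members and gene lists were chosen with earlier results of these data known, and the 3 genes were named in all lists by rule, with 2 most alike regions each, their neighbouring genes and the nearest outside peaks. Ties in rank share the best rank.

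Tags were recovered under MACS2's formulas, which no label records: the fold is scaled tags plus a pseudocount of 1 over background plus 1, and p the Poisson tail of those quantities. With 1 scale per list, a single whole number met p within 0.004 (−log10) for 99.8% of control, 99.4% of starvation and 99.7% of tunicamycin peaks, all 9 members included. The fitted scale was 0.650 in control, 0.618 in starvation and 0.466 in tunicamycin. The fitting was tried on data simulated with other scales under the same formulas. That cannot show that the deposited values follow these formulas. Intervals are exact at 95%. Motif searches used RefSeq sequences. There was no test between conditions. Alternatives covered the window, score threshold, overlap, ranking measure, merging, scale and motif. Scripts ran in Python 3.11.15 with scipy 1.17.1, pandas 2.3.3, matplotlib 3.10.9 and numpy 2.4.6.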

Additional observations from a re-analysis of the deposited data

How the results depend on the processing

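The members' values were computed 53 times under other settings, with 7 shifts. A shift means a count or rank over 1.5 times away, or a tag number outside the 95% exact Poisson interval of the reported one. Ranked by fold in place of score, the Rad9a peak stood at 14 instead of 1 (control), 24 instead of 3 (starvation) and 16 instead of 1 (tunicamycin). Bax stood higher by fold, at 5 instead of 9, 3 instead of 7 and 1 instead of 3 in the same order. Ube2b differed by less than 1.5 times, at 11, 7 and 2 instead of 10, 5 and 2. The local background beside these values differed between the genes, and the cause was not tested. With TCACGTGA in place of CACGTG, the Bax window held 1 match in place of 2. All 3 genes had a peak in each list with the central 2 kb of the windows, windows of 30 kb, a score of at least 108 (the 75th percentile of control) and the top 422 peaks of each list, and their peaks met a 50% reciprocal overlap. At Bax in control and tunicamycin that overlap was narrow, at 50.6%. Since the genes were picked for strong peaks, these counts could hardly change. No paired analysis was possible because each condition had 1 library. The member summits rested on 59 tags (Bax, control) to 298 tags (Rad9a, tunicamycin).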
